A study of Mus musculus with 8 samples.

Results

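The 10 genes described here are Speer3, Adgb, Lrriq1, Zdhhc11, Enkur, Dydc1, Usp17ld, Fut11, Macrod2 and Prrg4. They were chosen by their measured log2 difference in mouse sperm between a caloric restriction (CR) diet and a low protein (LP) diet, and they are 10 of the 19411 genes that the arrays name. Each gene stands for its probe set with the highest mean over the 8 arrays. All 10 lay above the lowest 30% of genes by mean level, so all 10 were among the 13587 genes tested. The study asked how the diet of male mice bears on the RNA of their sperm. Sperm RNA was measured on 1 array from CR males, 2 arrays from LP males and 3 arrays from control males, and tissue of the epididymis on 1 array from an LP and 1 from a control sample. All mice were of the C57/Bl6 strain, with no transgene or mutation named. LP and control males were kept on their diet to an age of 9 to 12 weeks and then placed with control-fed females; no age or handling is stated for the CR males, so diet cannot be told apart from these in the CR array. Sperm came from the cauda, the last segment of the epididymis. The labels put every preparation above 99.5% purity under the microscope and state a PCR screen against the tissue transcripts Actb and Myh11. Whether a sample is 1 animal or a pool is not stated, and nothing says that replicates are separate animals, so every error and p-value below reflects the spread among the arrays alone, and that spread may be technical.

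Mature sperm transcribe little or nothing. Their RNA is a remnant of spermatogenesis, when spermatocytes and round spermatids in the testis make the transcripts for the flagellum, the acrosome and the compact nucleus, and most cytoplasm is later shed. Several of the genes encode proteins of this programme. Enkur (enkurin) is a calmodulin-binding protein of the flagellum and sits inside the microtubules of the axoneme, the motile core of the tail. Adgb (androglobin) joins a calpain-like domain to a globin domain split by a calmodulin-binding IQ motif, and is needed for sperm formation in mice. Lrriq1 carries leucine-rich repeats and IQ motifs. Dydc1 has a DPY30 domain, a small dimerization fold shared with several sperm tail proteins. Speer3 belongs to the Speer family, glutamate-rich proteins encoded by a rodent multigene family and made in germ cells. Zdhhc11 belongs to the DHHC palmitoyltransferases, which attach fatty acids to proteins. Usp17ld belongs to the Usp17-like deubiquitinases, another multicopy family. Fut11 is a fucosyltransferase, Macrod2 removes ADP-ribose from proteins, and Prrg4 is a membrane protein with a Gla domain, which is carboxylated with vitamin K.

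RefSeq promoter windows of build GRCm38.p6, reaching from 250 bases before to 50 bases after a gene's annotated start, were given for 9 of the 10 genes. They were searched on both strands for 7 short motifs. The hexamer GTTGCC, the short form of the X-box that RFX factors bind at genes of cilia and spermatogenesis, lay in the windows of 4 of the 5 genes higher under CR that had one (Enkur, Adgb, Lrriq1 and Dydc1) and in 0 of the 4 of those lower under CR. Of all 32817 windows, 12.5% held it. The 4 windows are printed because this hexamer is the sequence feature that they share. The window of Usp17ld is printed because that gene had the furthest CR minus LP difference. Capitals mark GTTGCC or its reverse complement, the CRE short site TGACG and the TATA box TATAAA, with position 1 at the annotated start and -1 just before it.
Enkur: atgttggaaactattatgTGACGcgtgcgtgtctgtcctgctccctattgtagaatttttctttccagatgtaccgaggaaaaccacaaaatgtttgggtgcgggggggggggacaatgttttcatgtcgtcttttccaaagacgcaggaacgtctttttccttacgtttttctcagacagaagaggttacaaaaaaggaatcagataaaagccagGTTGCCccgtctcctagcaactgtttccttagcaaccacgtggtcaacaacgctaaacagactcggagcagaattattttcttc
Adgb: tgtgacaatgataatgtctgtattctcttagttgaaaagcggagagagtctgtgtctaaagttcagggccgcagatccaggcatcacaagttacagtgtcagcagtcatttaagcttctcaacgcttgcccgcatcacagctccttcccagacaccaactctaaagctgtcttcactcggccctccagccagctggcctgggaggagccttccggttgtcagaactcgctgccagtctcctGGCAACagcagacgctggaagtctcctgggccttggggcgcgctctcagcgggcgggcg
Lrriq1: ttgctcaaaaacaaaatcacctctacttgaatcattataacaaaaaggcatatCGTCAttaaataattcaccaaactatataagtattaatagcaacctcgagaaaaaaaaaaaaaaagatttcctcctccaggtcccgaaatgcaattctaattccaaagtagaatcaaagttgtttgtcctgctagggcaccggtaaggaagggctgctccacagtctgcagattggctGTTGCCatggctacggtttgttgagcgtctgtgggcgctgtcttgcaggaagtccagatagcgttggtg
Dydc1: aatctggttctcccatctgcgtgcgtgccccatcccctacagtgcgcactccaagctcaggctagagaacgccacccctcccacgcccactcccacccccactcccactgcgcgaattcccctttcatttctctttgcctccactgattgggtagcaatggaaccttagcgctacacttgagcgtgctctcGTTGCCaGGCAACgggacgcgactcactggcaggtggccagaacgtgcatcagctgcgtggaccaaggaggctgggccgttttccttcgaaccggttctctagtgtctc
Usp17ld: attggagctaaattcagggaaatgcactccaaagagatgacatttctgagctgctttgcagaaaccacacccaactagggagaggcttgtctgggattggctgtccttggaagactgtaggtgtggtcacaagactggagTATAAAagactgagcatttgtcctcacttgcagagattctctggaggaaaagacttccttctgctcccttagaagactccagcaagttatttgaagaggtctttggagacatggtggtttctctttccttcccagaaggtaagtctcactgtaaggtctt
The Enkur window is chr2:21205316-21205615 on the minus strand, and its GTTGCC begins at position -34. The Adgb window is chr10:10472350-10472649 on the minus strand, with the hexamer in reverse orientation at position -9. The Lrriq1 window is chr10:103236273-103236572 on the minus strand, with the hexamer at position -19. The Dydc1 window is chr14:41072661-41072960 on the plus strand and held the hexamer in both orientations, at positions -59 and -52, with 1 base between them. In each of the 4 genes the hexamer therefore lay within 60 bases before the start, and no other searched motif overlapped it. The Usp17ld window is chr7:103252456-103252755 on the minus strand, with TATAAA at position -110, a motif held by 13.6% of all windows.

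The other motifs gave few matches or were common to many windows. The CRE short site TGACG was present in Enkur and Lrriq1 and in 20.8% of all windows. The full CRE site TGACGTCA (1.79% of all windows) and the A-MYB site GGCAGTT (4.12%) matched none of the 9 genes, which says only that these letters are not in these windows. An E-box CANNTG, held by 72.3% of all windows, lay in 3 of the 5 genes higher and 3 of the 4 lower under CR, and a GC box GGGCGG, held by 35.6%, in 1 of 5 and 2 of 4. Base composition varied widely among the genes. The GC share was 41.3% in Lrriq1, 44.0% in Speer3, 44.7% in Enkur, 56.0% in Adgb and 59.7% in Dydc1, against 45.7% in Usp17ld, 49.0% in Prrg4, 54.3% in Fut11 and 73.7% in Macrod2, beside a median of 52.7% over all windows. Usp17ld had 0 CpG dinucleotides and Speer3 1, where the median window has 7. A match is a description of the letters and not evidence of a bound site.

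Marker lists separated the tissues to different degrees. All 15 tested sperm and spermatid markers were higher in control sperm than in epididymis, and all 11 smooth muscle markers were lower (limma adjusted p under 0.05 over all genes). Epididymal epithelium markers were lower in 14 of 15 and fibroblast markers in 7 of 8, whereas of 10 leukocyte markers 2 were lower and 1, Lyz2, was higher. The sperm arrays still carried tissue signal. Actb measured 11.28 on the CR array, 11.04 and 10.49 on the LP arrays and 11.43 to 11.61 on the control sperm arrays, against 12.50 and 12.67 in LP and control epididymis. Myh11 measured 7.85 under CR, 7.51 and 7.09 under LP and 7.94 to 8.13 in control sperm, against 11.77 and 11.79 in LP and control epididymis. LP array 2 stood apart from the other sperm arrays: its correlation with them over tested genes ran from 0.71 to 0.86, and that among the other 5 sperm arrays from 0.85 to 0.98. Counts of CR minus LP for the 10 genes are therefore given with and without it where that moves them. Counts over all genes, related genes and markers include it. No pair of arrays was identical, and the labels name no batch.

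Summed marker signals differed between the diets as well, here as a percentage of the mean of the epididymis arrays. Markers of earlier germ cells, such as the spermatocyte genes Mael and Tdrd6, summed to 612% in CR sperm, 329% to 406% in LP sperm and 198% to 235% in control sperm. Sperm and spermatid markers summed to 1123% in CR sperm, 1073% to 1365% in LP sperm and 682% to 923% in control sperm. Epididymal epithelium markers summed to 31.4% in CR sperm, 23.0% to 36.4% in LP sperm and 42.6% to 48.5% in control sperm. Smooth muscle markers summed to 10.7% in CR, 6.92% to 9.15% in LP and 11.8% to 14.1% in control sperm. Fibroblast markers gave 45.4%, 30.6% to 38.8% and 40.7% to 55.4% in the same order of diets, and leukocyte markers 57.7%, 31.8% to 59.1% and 63.4% to 77.5%. The earlier germ cell sum thus followed the same order over the diets as the 6 genes higher under CR, and the part of such cells in those differences was not tested. In these bulk samples, fewer cells of a type and less RNA per cell cannot be told apart.

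The 6 genes higher under CR followed 1 order on every array: the CR array above both LP arrays, both LP arrays above all 3 control sperm arrays, and control sperm above both epididymis arrays. Values are log2 intensities. Speer3 measured 9.06 under CR, 6.70 and 6.57 under LP, 6.57, 6.07 and 6.07 in control sperm, and 4.75 and 4.25 in LP and control epididymis. LP and control sperm met at 6.57, so their order for Speer3 lay within the spread of the control arrays (SD 0.29, n = 3). Adgb measured 10.18 under CR, 8.17 and 8.14 under LP, 7.31, 7.19 and 7.45 in control sperm, and 4.30 and 5.10 in LP and control epididymis. Here the 3 diets were well apart, and each step was larger than the spread within LP (SD 0.02, n = 2) and control sperm (SD 0.13, n = 3). The only other probe set of Adgb gave the same order, with 8.60 under CR, 6.79 and 6.53 under LP, 6.13, 5.90 and 6.07 in control sperm, and 4.15 and 3.96 in LP and control epididymis.

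Lrriq1 and Enkur had almost the same steps. Lrriq1 measured 8.80 under CR, 7.07 and 7.11 under LP, 6.30, 6.13 and 6.01 in control sperm, and 4.83 and 4.80 in LP and control epididymis. Enkur measured 8.77 under CR, 7.18 on both LP arrays, 6.15, 6.16 and 6.36 in control sperm, and 4.46 and 4.44 in LP and control epididymis. In both genes the LP arrays differed from each other by less than 0.05. Dydc1 measured 10.16 under CR, 8.47 and 8.43 under LP, 7.84, 7.38 and 7.63 in control sperm, and 5.76 and 5.87 in LP and control epididymis. Zdhhc11, the palmitoyltransferase of the set, measured 8.27 under CR, 6.35 and 6.42 under LP, 5.85, 5.62 and 5.80 in control sperm, and 4.58 and 4.75 in LP and control epididymis. No groups overlapped in any of these 4 genes. Of all tested genes, 5.56% were in this strict order. Because the CR and LP arrays chose the genes, the upper step of the order is fixed by the choice and nothing is read from the count.

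**Figure D1:**
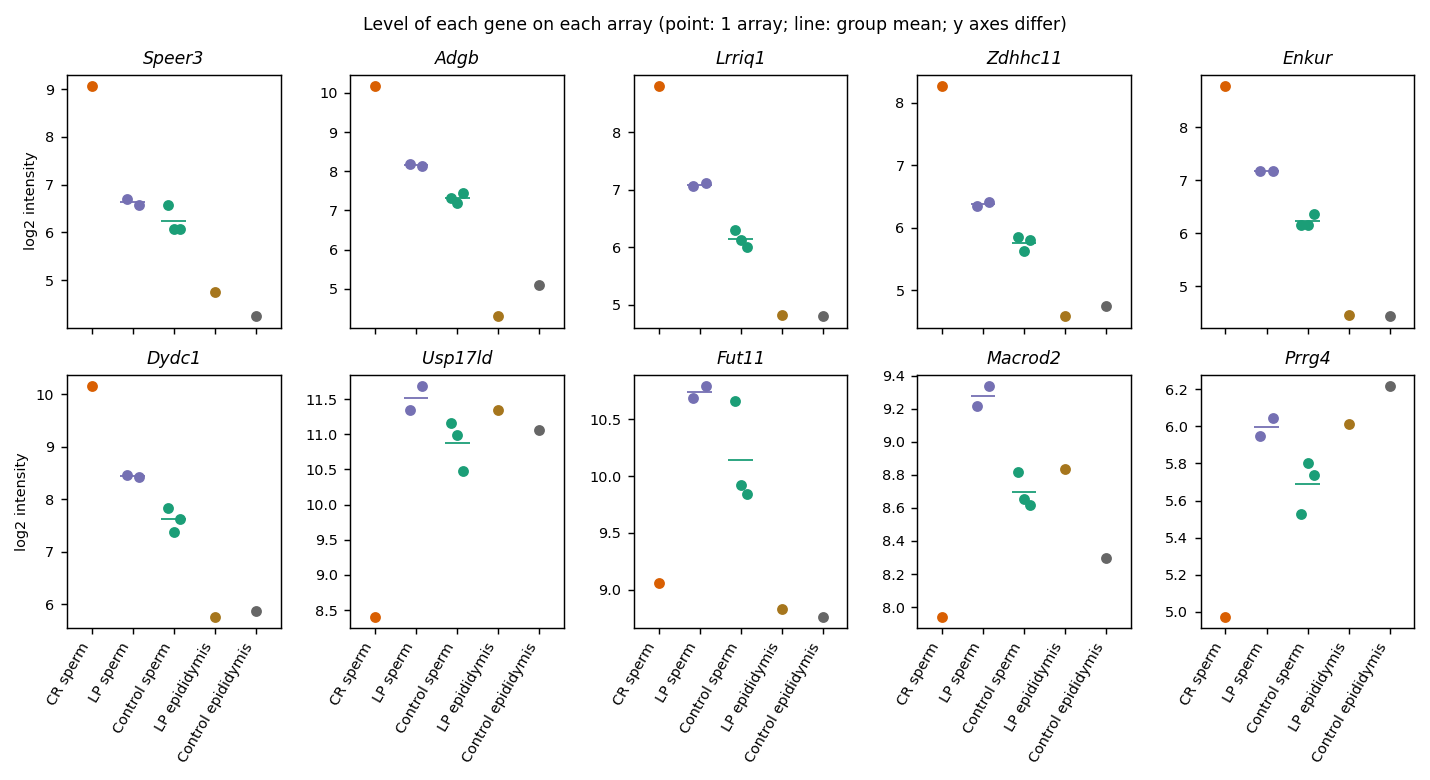
Level of each of the 10 genes on each array (y, log2 intensity, a separate scale for each gene) by group (x: CR, LP and control sperm, then LP and control epididymis). Points are arrays and lines are group means; Speer3, Adgb, Lrriq1, Zdhhc11, Enkur and Dydc1 step down from CR sperm to epididymis, while Usp17ld, Fut11, Macrod2 and Prrg4 have their lowest sperm value on the CR array.

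The 4 genes lower under CR shared the order LP above control above CR in sperm, where every LP array lay above every control array, but not the place of the epididymis. Usp17ld measured 8.41 under CR, 11.34 and 11.68 under LP, 11.16, 10.98 and 10.48 in control sperm, and 11.35 and 11.06 in LP and control epididymis. The CR array alone was low, and the other 7 arrays lay within 10.48 to 11.68, with LP sperm and epididymis overlapping. Fut11 measured 9.06 under CR, 10.68 and 10.79 under LP, 10.66, 9.92 and 9.84 in control sperm, and 8.83 and 8.76 in LP and control epididymis. Its CR value was the one nearest to epididymis, and control array 1 lay only just below the LP arrays, within the spread of the control arrays (SD 0.45, n = 3). Macrod2 measured 7.94 under CR, 9.22 and 9.34 under LP, 8.82, 8.65 and 8.62 in control sperm, and 8.84 and 8.29 in LP and control epididymis. The epididymis samples of Macrod2 fell on both sides of control sperm. Prrg4 measured 4.98 under CR, 5.95 and 6.05 under LP, 5.53, 5.80 and 5.74 in control sperm, and 6.01 and 6.22 in LP and control epididymis. Prrg4 was the only one of the 10 genes whose epididymis values lay above all control sperm values. Of all tested genes, 19.8% had the CR array below the other 5 sperm arrays, as these 4 did, and here too the choice of the genes fixes part of the count.

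The CR minus LP differences chose the genes and are given as a description with no test. Speer3 was 2.43 ± 0.27 higher on the log2 scale (moderated SE from limma, 1 CR and 2 LP arrays), a 5.37-fold difference. Adgb was higher by 2.02 ± 0.22, Zdhhc11 by 1.89 ± 0.22, Lrriq1 by 1.71 ± 0.22, Dydc1 by 1.71 ± 0.25 and Enkur by 1.59 ± 0.21. Usp17ld had the furthest difference of all tested genes, at -3.10 ± 0.31, or 8.59-fold lower under CR. Fut11 differed by -1.68 ± 0.35, Macrod2 by -1.33 ± 0.22 and Prrg4 by -1.02 ± 0.22. In these errors the single CR array is taken to have the same spread as the LP and control sperm arrays. A difference of 1 or more was found for 6 of the genes, as it was for 2.18% of all tested genes, and one of -1 or less for 4, as for 0.155% of all. Without LP array 2 the second count was 3, since Prrg4 came to -0.97, and without LP array 1 all 10 genes stayed past 1.

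The choice did not take every gene of that size. Among tested genes, 15 others had a CR minus LP difference above that of Enkur and 17 others had one below that of Prrg4. Just outside Enkur at 1.59 stood Gm1141 at 1.59 and Spaca7 at 1.58. Just outside Prrg4 stood Mlip at -0.998 and Ptprv at -0.98.

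Against control sperm the CR array was further away in the 6 higher genes and nearer in the 4 lower ones. CR minus control was 2.86 ± 0.20 for Adgb, 2.83 ± 0.26 for Speer3, 2.65 ± 0.21 for Lrriq1, 2.55 ± 0.20 for Enkur, 2.54 ± 0.23 for Dydc1 and 2.51 ± 0.20 for Zdhhc11. It was -2.47 ± 0.30 for Usp17ld, -1.08 ± 0.33 for Fut11, -0.75 ± 0.20 for Macrod2 and -0.71 ± 0.21 for Prrg4. A difference of 1 or more was found in 6 genes (5.67% of all tested genes) and of -1 or less in 2, Usp17ld and Fut11 (0.221% of all). Fut11 fell short of that size without control array 1 (-0.82), under cyclic loess (-0.84) and with the mean of its probe sets (-0.60). This comparison shares the CR array with the one that chose the genes, so it carries no test.

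In the probe sets used, LP sperm lay above control sperm in all 10 genes, whichever way CR went. LP minus control was 0.95 ± 0.16 for Enkur, 0.94 ± 0.17 for Lrriq1, 0.84 ± 0.16 for Adgb, 0.83 ± 0.18 for Dydc1, 0.62 ± 0.16 for Zdhhc11 and 0.40 ± 0.20 for Speer3. Among the genes lower under CR it was 0.64 ± 0.23 for Usp17ld, 0.60 ± 0.26 for Fut11, 0.58 ± 0.16 for Macrod2 and 0.31 ± 0.17 for Prrg4. None reached 1, a size that 3.2% of all tested genes reached in either direction. Over all tested genes, 43.5% had LP above control and the median difference was -0.06, but high LP values helped to choose the genes lower under CR. The trait was also common outside the 10 genes. LP lay above control in 75.9% of the other genes with CR minus LP of 1 or more. It did so in 88.2% of the others at -1 or less. With cyclic loess scaling the LP minus control difference of Usp17ld came to 1.45, of Fut11 to 1.26 and of Macrod2 to 1.04, while with the mean of its probe sets that of Fut11 came to 0.05. The 3 diet comparisons share arrays and are set side by side only.

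**Figure D2:**
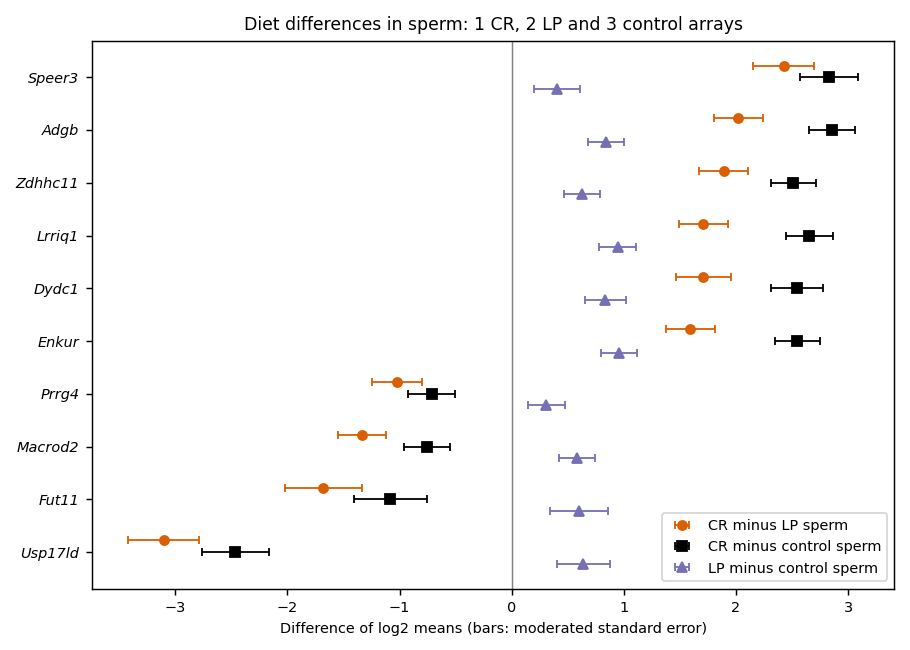
Differences of log2 means (x) for each gene (y) in sperm, with CR minus LP as circles, CR minus control as squares and LP minus control as triangles; bars are moderated standard errors (1 CR, 2 LP and 3 control arrays). In the upper 6 genes CR lies above both other diets and LP above control, while in the lower 4 CR lies below both and LP again above control.

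The difference between control sperm and epididymis played no part in the choice of the genes and was tested. The test set 3 control sperm arrays against 2 epididymis arrays (limma, two-sided, Benjamini-Hochberg over 13587 genes). These 5 arrays did enter the mean that kept each probe set and set the level filter. Speer3, Adgb, Lrriq1, Zdhhc11 and Enkur had epididymis means of 4.45 to 4.82, below the filter level of 5.69. They passed it through their sperm values, which favours genes higher in sperm. Those values include the CR and LP arrays that chose the genes, with CR levels from 8.27 (Zdhhc11) to 10.18 (Adgb). Entry to the test thus rested in part on the values used for the choice. With no filter, 8 of the 10 genes passed the threshold, as with it. All 6 genes higher under CR were higher in control sperm, as was Fut11. Adgb was higher by 2.62 ± 0.19 (SE; limma adjusted p = 2.11e-07), the furthest of the 10, and Dydc1 by 1.80 ± 0.15 (adjusted p = 6.09e-07). Enkur was higher by 1.78 ± 0.13 (limma adjusted p = 2.11e-07), Speer3 by 1.74 ± 0.19 (5.22e-06), Lrriq1 by 1.33 ± 0.14 (3.45e-06) and Zdhhc11 by 1.09 ± 0.14 (1.86e-05). In each of these 6 genes all 3 control sperm arrays lay above both epididymis arrays. Fut11 was higher by 1.34 ± 0.20 (limma adjusted p = 0.000103), also without overlap, in the probe set kept by its mean; its other probe set had a difference of -0.30.

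In the probe sets used, the other 3 genes showed no such excess in sperm. Over the 6 Macrod2 probe sets the control sperm minus epididymis difference ran from -0.96 to 1.40, the highest without overlap of the groups. Prrg4 was lower in control sperm by a log2 difference of -0.42 ± 0.14 (limma adjusted p = 0.0210), and that call was lost without the control epididymis array (-0.32, adjusted p = 0.218) and with all 8 arrays in the fit (-0.28, adjusted p = 0.182). Usp17ld differed by -0.33 ± 0.18 (limma adjusted p = 0.145), with overlapping groups and a sign that turned under quantile normalization (0.02) and cyclic loess (0.27); without control sperm array 1 it passed the threshold at -0.47 (adjusted p = 0.0466). Macrod2 differed by 0.13 ± 0.16 (limma adjusted p = 0.510), also with overlapping groups; it passed the threshold at 0.58 under quantile normalization, 0.60 under cyclic loess and 0.42 with all 8 arrays in the fit, and came to -0.14 without the control epididymis array. In counts, 7 of the 10 genes were higher in control sperm, where 22.2% of all tested genes were, and 1 was lower, where 32.3% were.

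Other genes with a CR minus LP difference of 1 or more were often high in sperm. Their median CR minus LP difference was smaller, at 1.19 against 1.80 in the 6 genes higher under CR. Of the other 290 genes with a CR minus LP difference of 1 or more, 183 (63.1%) were higher in control sperm than in epididymis and 54 (18.6%) were lower. The median control sperm minus epididymis difference was 1.76 in the 6 genes, against 0.79 in these others and -0.05 over all tested genes. Of those 290 genes, 168 (57.9%) also stood in the strict order of groups. Of the other 17 genes with a CR minus LP difference of -1 or less, 9 were higher in control sperm and 3 lower; the median was -0.10 in the 4 genes lower under CR, against 0.42 in these 17.

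**Figure D3:**
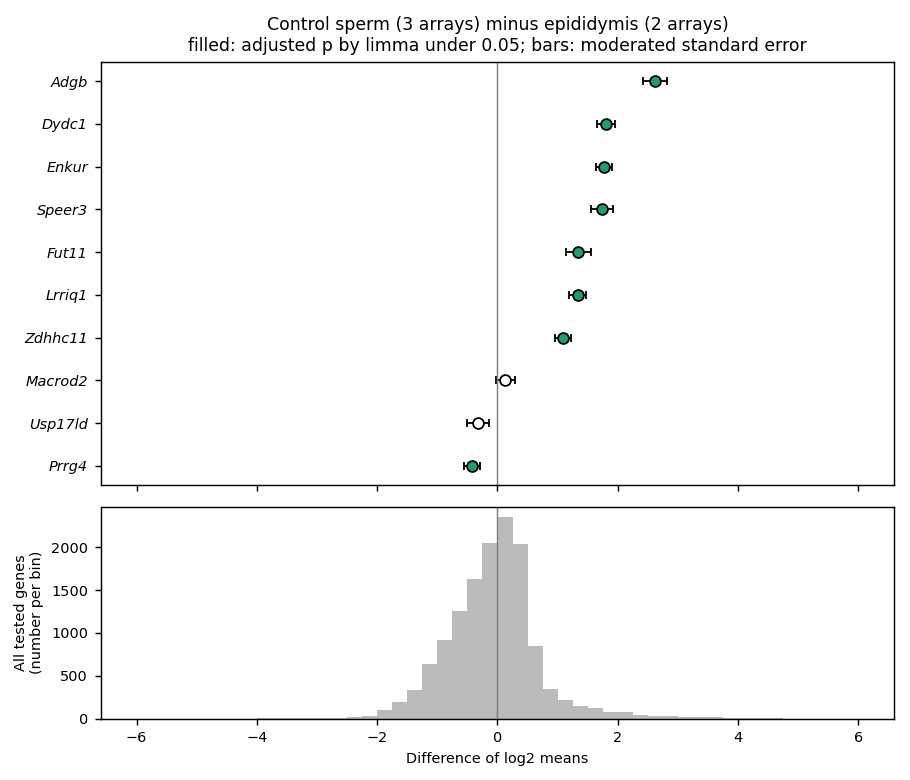
Control sperm minus epididymis difference of log2 means (x, 3 and 2 arrays) for the 10 genes (top, with moderated standard errors; filled points have a limma adjusted p under 0.05) above the distribution of the same difference over all 13587 tested genes (bottom, genes per bin). Of the genes, 7 lie to the right with filled points and Prrg4 to the left; Usp17ld and Macrod2 are open, and the side of Usp17ld turned under 2 other scalings and that of Macrod2 without the control epididymis array.

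In the epididymis itself, LP and control were 1 array each, with no replicate check. Adgb was lower in LP epididymis, with 4.30 against 5.10 in control epididymis, but its other probe set went the opposite way, with 4.15 against 3.96, and all 4 values lie below the filter level of 5.69. Macrod2 was higher there by 0.54, Speer3 by 0.50 and Usp17ld by 0.29. The other 6 genes differed by -0.20 (Prrg4), -0.17 (Zdhhc11), -0.11 (Dydc1), 0.02 (Enkur), 0.03 (Lrriq1) and 0.07 (Fut11). The SD of this difference over all tested genes was 0.19, so Macrod2, Speer3 and the Adgb probe set used lay beyond 2 such SDs. The Speer3 values, 4.75 in LP and 4.25 in control epididymis, also lay below the filter level. That SD may not describe such low values. Over the Macrod2 probe sets the difference ran from -0.24 to 0.63. None of the 10 differed by 1, where 0.0662% of all tested genes did.

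Speer3 could be set beside its family. The arrays held 23 probe sets of Speer genes, of which 5 named a single gene and 18 named several, so signal of near-identical copies cannot be assigned to a gene in most of them. Of the 23, 21 stood in the same strict order of groups as Speer3, and 22 had a CR minus LP difference of 1 or more. In the 21, CR minus LP ran from 1.40 to 2.43 with a median of 1.78, and Speer3 had the highest. Their level on the CR array ran from 7.58 to 11.2, on LP arrays from 6.03 to 9.56, on control sperm arrays from 5.49 to 8.86 and on epididymis arrays from 2.79 to 5.15. The exceptions were Speer6-ps1, a pseudogene, whose control sperm and epididymis values overlapped, and a shared probe set with 6.47 under CR, 6.81 and 7.79 under LP, 6.59, 6.35 and 6.09 in control sperm, and 5.38 and 5.73 in LP and control epididymis. Its CR minus LP difference was -0.83, and -0.34 without LP array 2.

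The tested family members with a probe set of their own had differences of the same sign. Speer2, Speer4a and Speer4b had epididymis means of 4.74, 4.71 and 4.85, below the filter level of 5.69. They passed the filter through their sperm values, the CR array included, which favours genes higher in sperm. Speer6-ps1, which was not tested, had a control sperm minus epididymis difference of 0.09. Speer4a was 1.59 ± 0.23 higher in control sperm than in epididymis (limma adjusted p = 6.25e-05), and its CR minus LP difference was 1.60. Speer4b was 1.55 ± 0.19 higher in control sperm (limma adjusted p = 1.70e-05) and 1.43 higher in CR than in LP sperm. Speer2 was 0.96 ± 0.16 higher in control sperm (limma adjusted p = 0.000198) and 1.40 higher in CR than in LP sperm. The 17 shared probe sets in the order reached further in the tissue difference, from 2.19 to 4.75, but stayed within 1.54 to 1.89 in CR minus LP.

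No other Usp17-like probe set differed between CR and LP as far as that of Usp17ld. Its CR minus LP difference was -3.10, against -0.94 (Usp17lc), -0.46 (a probe set shared by several copies), -0.11 (Usp17lb) and -0.06 (Usp17la) in the 4 others on the arrays. Usp17lc measured 4.72 under CR, 5.43 and 5.88 under LP, 5.89, 5.38 and 4.995 in control sperm, and 5.06 and 5.01 in LP and control epididymis, so its CR value was the lowest too, at a level near the filter of 5.69. Usp17lb, the only other one tested, had a control sperm minus epididymis difference of 0.25 ± 0.14 (limma adjusted p = 0.164).

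**Figure D4:**
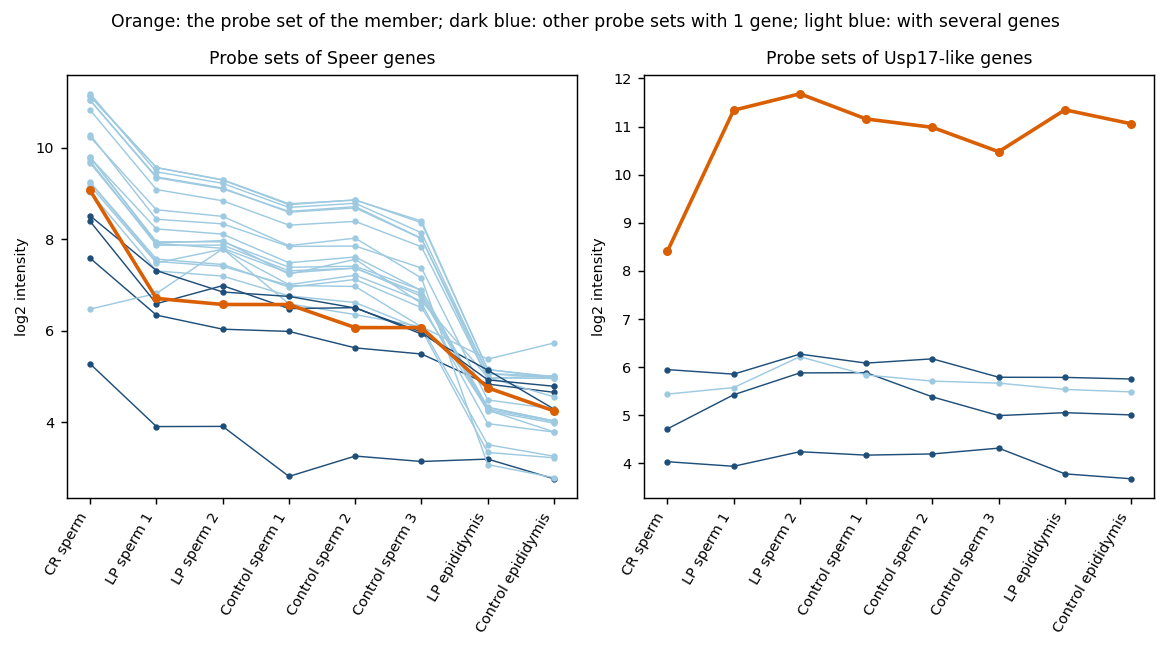
Log2 intensity (y) on each array (x, CR, LP and control sperm, then LP and control epididymis) of the 23 Speer probe sets (left) and the 5 Usp17-like probe sets (right), with a line for each probe set. Speer3 (orange, left) steps down from CR sperm to epididymis with 20 other Speer probe sets, whereas Usp17ld (orange, right) dips on the CR array by more than any other Usp17-like probe set.

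Fut11 and Macrod2 depended on the probe set. A further probe set of Fut11 measured 7.18 under CR, 6.83 and 6.77 under LP, 7.29, 7.24 and 7.37 in control sperm, and 7.58 and 7.61 in LP and control epididymis. Its CR minus LP difference was 0.37, its LP minus control difference -0.50 and its control sperm minus epididymis difference -0.30, all opposite in sign to the probe set used. In the platform annotation this probe set carries a RefSeq transcript of Fut11 and the one used carries a cDNA clone, so which transcript gives the difference was not settled. With the mean of the probe sets, CR minus LP of Fut11 came to -0.65 and control sperm minus epididymis to 0.52 (limma adjusted p = 0.00892). Macrod2, a very long gene, had 6 probe sets whose CR minus LP differences ran from -1.33 to -0.01, with the used one furthest. The next, at -0.88, measured 7.97 under CR, 8.46 and 9.22 under LP, 8.10, 8.29 and 7.74 in control sperm, and 6.69 and 6.60 in LP and control epididymis, with CR inside the range of control sperm. With the mean of its probe sets Macrod2 had a CR minus LP difference of -0.57 and a CR minus control difference of 0.0033.

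**Figure D5:**
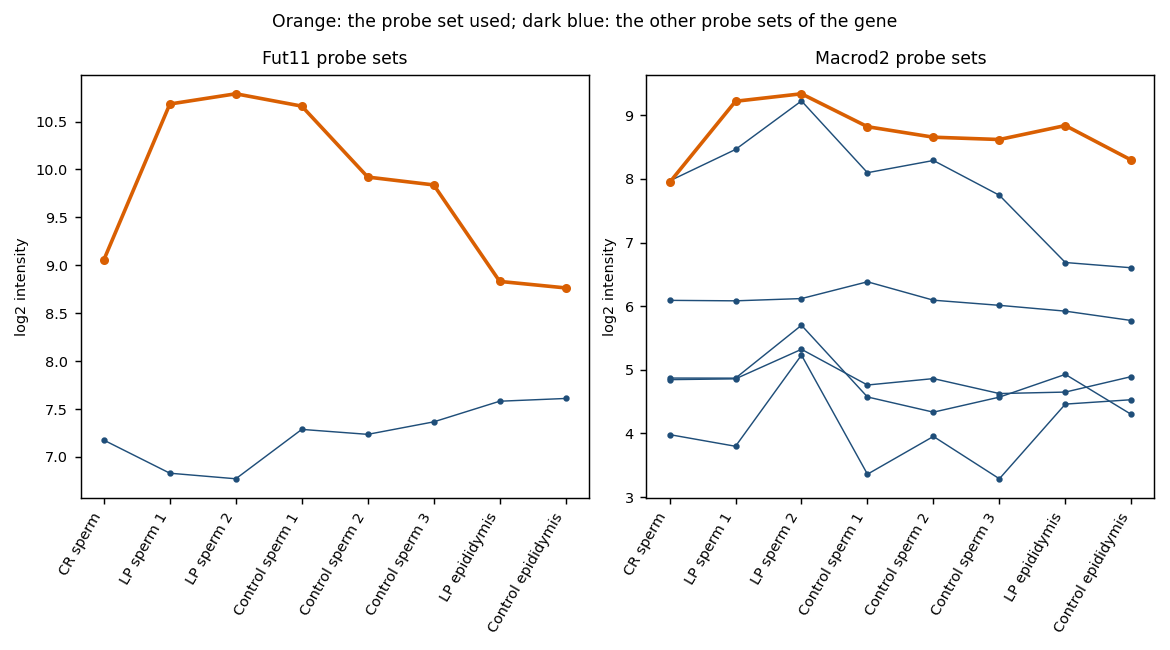
Log2 intensity (y) on each array (x, CR, LP and control sperm, then LP and control epididymis) of the 2 Fut11 probe sets (left) and the 6 Macrod2 probe sets (right), with the probe set used in orange. The other Fut11 probe set is higher under CR than LP where the one used is lower, and CR minus LP is -1.33 in the Macrod2 probe set used, against -0.88 to -0.01 in the others.

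Genes related to the 10 by structure or function were compared with them next, leaving the 10 themselves out. Of the 18 other tested proteins of the axonemal microtubule lumen, the group of Enkur, 15 were higher in control sperm and 1 was lower (limma adjusted p under 0.05). Their median CR minus LP difference was 0.74, against 0.02 over all tested genes, and 5 of 18 reached 1. Of 30 genes listed, 20 were measured and 19 were tested, Enkur among them. Some were low in epididymis, such as Efhb (3.62 in LP and 3.92 in control) and Tekt3 (4.50 and 5.01). Such genes passed the level filter through sperm, which favours genes higher in sperm. Tekt2, a tektin that runs along the axonemal doublets, was 2.09 ± 0.14 higher in control sperm (limma adjusted p = 8.32e-08) and 1.54 higher in CR than LP sperm. Efhb was 1.99 ± 0.15 higher in control sperm (limma adjusted p = 2.78e-07) and 1.10 higher in CR than LP sperm. Tekt3 was 1.34 ± 0.16 higher in control sperm (limma adjusted p = 1.06e-05) and 0.93 higher in CR than LP sperm. Enkur at 1.59 thus stood close above Tekt2.

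The IQ motif genes set beside Adgb and Lrriq1 were listed as genes of germ cells, so a sperm excess followed in part from that choice. They differed less between the diets than Adgb and Lrriq1. Of 15 listed, 13 were tested, Adgb and Lrriq1 among them. All 11 others tested were higher in control sperm, with a median CR minus LP difference of 0.22, and 2 of 11 reached 1. Some, such as Iqub (4.26 in LP and 4.08 in control epididymis), passed the level filter through sperm, which favours genes higher in sperm. Iqcf4 was 3.69 ± 0.14 higher in control sperm (limma adjusted p = 9.88e-10) with a CR minus LP difference of -0.40. Iqcf3 was 2.69 ± 0.14 higher in control sperm (limma adjusted p = 9.55e-09) with a CR minus LP difference of 0.22. Iqub was 1.81 ± 0.15 higher in control sperm (limma adjusted p = 7.54e-07) with a CR minus LP difference of 1.26, nearest to Adgb and Lrriq1 among the 3 named here. Iqcf4 and Iqcf3 thus had larger tissue differences and smaller diet differences than Iqub. The DPY30 and RII-like domain genes beside Dydc1 were likewise listed as genes of sperm, so their tissue count also followed in part from the choice. Among the 10 others, 9 were higher in control sperm, the median CR minus LP difference was 0.58, and 1 of 10 reached 1. Akap4, the main protein of the fibrous sheath, was 3.18 ± 0.13 higher in control sperm (limma adjusted p = 1.24e-09) but differed by 0.17 between CR and LP sperm. Spa17 was 2.53 ± 0.13 higher in control sperm (limma adjusted p = 7.60e-09) and differed by 0.70 between CR and LP sperm, and Fsip1 was 1.70 ± 0.16 higher (2.12e-06) and differed by 0.46.

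Germ cell marker lists were set beside these values, which does not place the genes at a stage. The 15 sperm and spermatid markers had a median CR minus LP difference of -0.16, and went both ways, with 7 above 0 and 8 below. Tnp2 was at -0.49, Spem1 at -0.32 and Prm1 at -0.27, while Ldhc, the only one past 1, was at 1.05 and Gapdhs at 0.19. The split depended in part on LP array 2. Prm1 measured 10.85 under CR, against 10.795 and 11.44 on LP arrays 1 and 2. Tnp2, at 10.95 under CR, lay below both LP arrays (11.14 and 11.75). Of 12 earlier germ cell markers only 6 passed the level filter, and Dazl, Sycp1, Sycp2, Sycp3, Hormad1 and Stra8 were not tested. A marker low in epididymis, such as Mael (4.51 in LP and 4.69 in control), passed the filter through sperm. That favours markers higher in sperm. The 6 tested markers had a median CR minus LP difference of 0.78, and all 6 were higher in control sperm (limma adjusted p under 0.05). Of these, Mael, a piRNA pathway gene, differed by 1.08 between CR and LP sperm and Tdrd6, a chromatoid body protein, by 1.13, while Piwil1 differed by -0.06. The 6 genes higher under CR, at 1.59 to 2.43, lay above every marker of both lists in CR minus LP, a difference by which they had been picked.

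The families of the remaining genes were mostly not higher in control sperm. Of the 21 other tested DHHC palmitoyltransferases, 2 were higher in control sperm and 9 lower, with a median CR minus LP difference of 0.06 and 0 reaching 1 (no test). Zdhhc19 was 1.67 ± 0.17 higher in control sperm (limma adjusted p = 3.47e-06) with a CR minus LP difference of 0.45, and Zdhhc25 was 1.29 ± 0.17 higher (3.30e-05) with one of 0.10. Zdhhc20 was lower in control sperm, at -1.37 ± 0.15 (limma adjusted p = 7.20e-06), with a CR minus LP difference of -0.33. Of the 6 other fucosyltransferases tested, 0 were higher and 2 lower in control sperm by limma, and the median CR minus LP difference was -0.08. The 6 other ADP-ribosylhydrolase and macrodomain genes beside Macrod2 included 5 lower in control sperm, with a median CR minus LP difference of -0.26. The 6 other genes of the Gla domain group beside Prrg4 included 3 lower in control sperm, among them Vkorc1 at -1.41 ± 0.13 (limma adjusted p = 1.65e-06), and their median CR minus LP difference was -0.26. Of the 11 other globin and calpain genes beside Adgb, 2 were higher and 2 lower in control sperm, with a median CR minus LP difference of -0.04.

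Within the 6 sperm arrays the 10 genes are described as 2 patterns, 6 genes with CR highest and 4 with CR lowest. Each gene correlated with the mean of the others in its pattern at r from 0.898 (Prrg4) to 0.997 (Zdhhc11), as a description over 6 arrays that share 1 outlying CR value. Outside the 10, among 5211 genes with an SD of at least 0.3 over these arrays, the genes most like the higher pattern were Slc22a14, Ccdc81, Tex38, Lrrc52 and Catsper3, with Pearson r from 0.998 to 0.999. Slc22a14 encodes a transporter of the sperm tail and Catsper3 a subunit of the sperm calcium channel. Catsper3 measured 8.46 under CR, 6.58 and 6.61 under LP, and 6.10, 5.78 and 6.04 in control sperm. Most like the lower pattern were H2-Aa (r = 0.990), Kank4 (0.984), Mtag2 (0.980), Cryga (0.968) and Tmem45b (0.959). H2-Aa, a class II antigen-presenting chain of immune cells, measured 7.43 under CR, 8.28 and 8.27 under LP, and 8.12, 7.98 and 8.00 in control sperm. Most like Usp17ld alone were Kank4 (r = 0.995), H2-Aa and Hapln2 (both 0.974), Mtag2 (0.970) and Tmem45b (0.968). Kank4 measured 5.67 under CR, 6.44 and 6.53 under LP, and 6.33, 6.37 and 6.23 in control sperm, so that CR minus LP was -3.10 for Usp17ld, against -0.81 for Kank4.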

How the data were processed

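RNA was measured on Affymetrix gene arrays, 1 per sample. The deposited values are log2 intensities that the authors obtained with RMA, as the submitters' processing notes state, with version and annotation not given in the sources used here. Their range shows the log2 scale, as values run from 1.17 to 14.5, with array medians from 6.08 to 6.17. RMA usually includes quantile normalization, so a change of total RNA is not visible. Of 33660 probe sets, 21222 carried 1 gene in the platform annotation, 1541 several and 10897 were unnamed here. RefSeq GRCm38.p6 updated 21137 symbols and 85 were kept. It also supplied the promoter windows.

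For each gene the probe set of highest mean was kept, and the lowest 30% of genes (log2 5.69 and below) were left out. limma 3.58.1 in R 4.3.3 (lmFit, eBayes) was fitted to the 13587 genes left, with Benjamini-Hochberg adjustment at 0.05. Tissue used 3 control sperm against 2 epididymis arrays of different diets as 1 group, and the diet fit took all 6 sperm arrays with separate diet means. The number of arrays limits the precision. The 10 genes, the related gene lists and the motifs were chosen with earlier results of these data known. Named beside the 10 were Actb, Myh11, up to 3 genes of each list with the largest tissue difference, and the 5 genes most correlated with each pattern over 6 sperm arrays. Genes of other probe sets, genes next to the 10 in rank and further markers were named after their values were seen. Alternatives were other scalings, filters, probe set rules, eBayes settings, all 8 arrays, a stricter threshold and arrays left out.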

Additional observations from a re-analysis of the deposited data

Results flagged for a closer look

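In 4 of the 10 genes the LP minus control difference was positive on both LP sperm arrays and negative in the epididymis. The difference between the tissues was not tested, and the epididymis had 1 array per diet. Adgb differed by 0.86 and 0.82 on the LP sperm arrays against the control sperm mean, and by -0.80 in the epididymis. The other Adgb probe set showed no opposite sign, at 0.63 in sperm and 0.19 in the epididymis. Dydc1 differed by 0.85 and 0.82 in sperm and by -0.11 in the epididymis, Zdhhc11 by 0.59 and 0.66 in sperm and by -0.17 in the epididymis, and Prrg4 by 0.26 and 0.36 in sperm and by -0.20 in the epididymis. The epididymis values of Dydc1 and Zdhhc11 lay within 1 SD (0.19) of that difference over all tested genes.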

How the results depend on the processing

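The tissue test kept its direction and its side of the threshold for single genes in 136 of 146 alternatives, CR minus LP moved by less than the spread between replicates in 62 of 76, CR minus control in 79 of 86 and LP minus control in 96 of 106. The Usp17ld tissue difference reversed to 0.0220 under quantile normalization and 0.27 under cyclic loess, that of Macrod2 to -0.14 without the control epididymis array (-0.14 to 0.40 over the arrays left out), and CR minus control of Macrod2 to 0.0033 with the mean of its probe sets; the cause was not tested. With the lowest 50% of genes left out, fewer of the 10 genes were tested, and 4 were past the threshold in tissue (8 in the fit as reported), 6 differed by 1 or more in CR minus LP (10) and 5 in CR minus control (8). LP minus control reached 1 in 3 genes under quantile normalization and 4 under cyclic loess, where none did as deposited. With an array left out, 7 to 9 of the genes passed the tissue test and 5008 to 7724 of all genes did (7409 with all arrays), 9 to 10 differed by 1 or more in CR minus LP, 7 to 8 in CR minus control and 0 to 1 in LP minus control. Usp17ld passed the tissue test only without control array 1 (-0.47, limma adjusted p = 0.0466), and Prrg4 missed the stricter threshold of 0.01. No paired analysis was possible because the labels give no replicate numbers shared between groups. The single CR array leaves no check of any CR value, and these values hold no measure of signal over background for low levels such as that of Prrg4.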
